A study of Mus musculus with 22 samples.

Results

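The promoters described here were those with intermediate methylation in control mammary glands of the mouse. For each autosomal protein-coding gene, the percent methylation of the CpG positions covered in all 22 samples was averaged over the positions within 2 kb of a curated RefSeq transcription start site (TSS), and genes with 3 or more such positions were kept. Of 13814 promoters that could be measured, 1293 had a mean of 10 to 50% over the 12 control mice and made up the set. A further 11514 promoters lay under 10% and 1007 over 50%. The FVB level therefore chose the promoters and is given as a description, while no PyMT value entered the choice.

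The study profiled DNA methylation by enhanced reduced representation bisulphite sequencing (ERRBS), which reads CpG-rich fragments cut by a restriction enzyme, in bulk mammary tissue of female mice. In PyMT mice, the mouse mammary tumor virus promoter of the MMTV-PyMT transgene drives the polyoma middle T oncogene mainly in mammary epithelium. They were F1 females of transgenic FVB/N males and FVB females, heterozygous for the transgene. They were taken with hyperplasia (week 6, 2 mice), adenoma/MIN (mammary intraepithelial neoplasia, week 8, 3 mice), early carcinoma (week 10, 3 mice) and late carcinoma (week 12, 2 mice), and 3 FVB females without the transgene served as age-matched controls at each of the 4 weeks. The authors left out samples they judged to be outliers. Every file came from a single mouse, so that the spread between files was a spread between animals.

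A CpG is methylated or not on a single DNA molecule, and the percentage measured in a tissue is an average over molecules. An intermediate percentage can come from cell types that differ in methylation, from an imprinted gene whose maternal and paternal alleles differ, or from variable methylation within a cell type. A promoter average can also be intermediate because fully unmethylated and fully methylated positions lie side by side within the window. The mammary gland of a young female is largely fat with a small share of epithelium, and tumors of this model are mostly epithelial. In bulk tissue, a change in which cells are present and a change of methylation within cells cannot be told apart.

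The sequences of 6 upstream windows show what such a promoter looked like at base level. Each line gives 250 bases of the mm10 strand of transcription, 5′ to 3′, upstream of a TSS, and capitals mark the CpGs that were measured in all 22 samples. Mab21l1 and Esam were chosen as promoters with large gains in PyMT, Cldn4 and Chad as promoters with large losses, Gnas as the promoter with the most measured positions, and Plagl1 as an imprinted promoter.
Mab21l1: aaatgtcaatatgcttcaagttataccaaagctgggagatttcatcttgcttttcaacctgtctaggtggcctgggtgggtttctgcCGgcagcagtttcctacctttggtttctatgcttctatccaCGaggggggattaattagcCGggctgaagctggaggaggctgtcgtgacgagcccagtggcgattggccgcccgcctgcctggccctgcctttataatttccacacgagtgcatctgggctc
Esam: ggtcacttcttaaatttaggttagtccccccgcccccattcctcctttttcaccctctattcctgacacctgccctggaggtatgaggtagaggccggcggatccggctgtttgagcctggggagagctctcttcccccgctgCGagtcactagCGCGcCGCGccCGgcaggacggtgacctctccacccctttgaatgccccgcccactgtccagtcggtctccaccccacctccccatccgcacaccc
Cldn4: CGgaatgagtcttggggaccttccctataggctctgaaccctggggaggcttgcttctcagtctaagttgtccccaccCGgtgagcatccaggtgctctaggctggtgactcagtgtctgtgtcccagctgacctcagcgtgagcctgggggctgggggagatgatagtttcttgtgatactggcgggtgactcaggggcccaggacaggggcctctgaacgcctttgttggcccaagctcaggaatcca
Chad: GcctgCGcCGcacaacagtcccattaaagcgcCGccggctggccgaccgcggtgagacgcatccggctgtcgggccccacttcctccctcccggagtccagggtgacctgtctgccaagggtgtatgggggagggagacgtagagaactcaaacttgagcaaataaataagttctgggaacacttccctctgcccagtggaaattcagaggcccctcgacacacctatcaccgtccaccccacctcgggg
Gnas: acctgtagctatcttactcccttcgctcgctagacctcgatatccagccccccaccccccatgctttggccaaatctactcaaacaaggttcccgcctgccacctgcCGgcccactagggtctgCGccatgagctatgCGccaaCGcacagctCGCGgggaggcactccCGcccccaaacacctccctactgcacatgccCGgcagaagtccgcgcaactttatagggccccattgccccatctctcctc
Plagl1: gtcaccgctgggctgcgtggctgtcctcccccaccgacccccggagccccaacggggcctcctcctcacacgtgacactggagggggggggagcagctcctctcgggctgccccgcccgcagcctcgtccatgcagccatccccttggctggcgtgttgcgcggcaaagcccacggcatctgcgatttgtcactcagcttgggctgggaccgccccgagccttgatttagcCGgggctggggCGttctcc
The Mab21l1 window (chr3:55782260-55782509) held 4 measured positions with a mean of 27.7% in FVB (15 to 44.1% between mice) and 65.7% in PyMT (51.5 to 78.5%). In the Esam window (chr9:37527839-37528088) the 6 measured positions had a mean of 19.1% in FVB and 61.2% in PyMT. The 2 measured positions of the Cldn4 window (chr5:134947031-134947280) averaged 32.3% in FVB and 9.77% in PyMT. The Chad window (chr11:94564533-94564782, 4 positions, the opening G belonging to a CpG cut by the edge) went from 21.2% in FVB to 3.44% in PyMT, with FVB mice between 0 and 56.9%. The 10 positions of the Gnas window (chr2:174284070-174284319) stood at 38.8% in FVB and 37.1% in PyMT. The Plagl1 window (chr10:13090582-13090831) had 2 measured positions at 36.8% and 41.1%. Measured CpGs were thus few and lay in small runs, while the other CpGs of the same window were not covered in every mouse.

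Averaged over the whole set, PyMT and FVB glands were close. The mean of the 1293 promoters was 22.9 to 23.9% between the 12 FVB mice (median 23.5%) and 21.5 to 23.7% between the 10 PyMT mice (median 22.7%). The median difference between PyMT and FVB was −0.47 points, with quartiles at −3.98 and 1.88 points, beside a median of −0.0096 points over all 13814 promoters. Single promoters moved far from that median, from −38.6 to 47.4 points.

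A promoter was called at q under 0.01 where PyMT and FVB also differed by at least 10 points. The q-value came from a quasi-binomial logistic regression of the reads, with week as a covariate and the spread between mice as error. The difference is the mean over the 4 weeks of PyMT minus FVB. Over all weeks 104 promoters of the set were called higher (8.04%) and 141 were called lower (10.9%), where 1.51% and 2.92% of all promoters tested were called higher and lower. Among promoters under 10% in FVB 45 were called higher and 0 lower, and among those over 50% 60 were called higher and 262 lower. A promoter under 10% cannot lose 10 points and one near 100% cannot gain them, so that the 3 ranges did not have the same room to move. By q-value alone 208 promoters of the set were higher (16.1%) and 307 lower (23.7%), where the background was 13.2% and 11.5%. At the other end, 627 promoters (48.5%) had a 95% interval of the difference, from limma on the promoter means, inside −5 to 5 points. Over all 13814 promoters 87.1% did so, with 97.2% of those under 10% in FVB and 20.9% of those over 50%. The remaining 421 promoters of the set were neither called nor held within 5 points. These 4 groups are called higher, lower, within 5 points and undecided below.

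**Figure D1:**
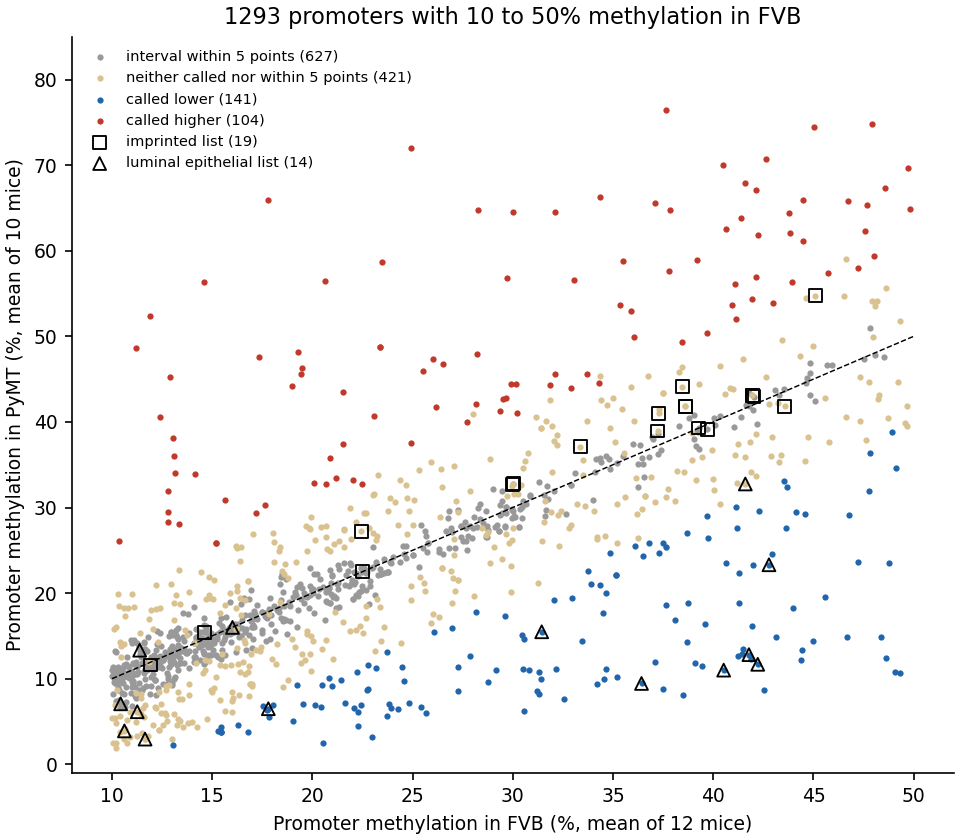
Promoter methylation of the 1293 promoters in PyMT (vertical axis, mean of 10 mice, in percent) against FVB (horizontal axis, mean of 12 mice, in percent), with the dashed line at equal levels, colors for the 4 groups and outlines for members of the imprinted and luminal epithelial gene lists. The 104 promoters called higher and the 141 called lower leave the diagonal on both sides, the 19 imprinted promoters lie along it, and 13 of the 14 luminal epithelial promoters lie below it.

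The calls in each group were also read mouse by mouse. All 10 PyMT mice lay above all 12 FVB mice at 109 promoters of the set (8.43%) and below them at 187 (14.5%), where 4.54% and 5.11% of all promoters tested did so. Of the 104 promoters called higher 68 were apart in this way, and so were 92 of the 141 called lower. Leaving out any 1 of the 22 mice gave 101 to 105 promoters called higher and 135 to 147 called lower. Just inside the lower limit lay Fnbp1 and Zcchc17, both with an FVB mean of 10.0%, and just outside it Layn and Ccdc63, both at 9.98%. Just inside the upper limit lay Rxfp2 at 49.8% and Endou at 49.7%, and just outside it Gm12888 and Slc2a9, both just above 50%. Around the 10-point limit, Nav1 (−10.13 points) and Insl3 (−10.19 points) were called, and Kcnmb1 (−9.98 points) and Tulp3 (−9.98 points) were not.

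The share of promoters called differed with the make-up of the intermediate average. Over the 32049 positions of the set, 68.4% were methylated under 20% in FVB, 23.2% between 20 and 80%, and 8.46% over 80%; 199 promoters had no position between 20 and 80%. The 7425 intermediate positions averaged 45.3% in FVB and the 2711 high ones 90.1%. In 323 promoters (25%) at least 50% of the positions were themselves at 20 to 80%. Of these 323, 66 were called higher and 104 lower, which is 52.6% called, and 22 were held within 5 points. Of the other 970, 38 were called higher and 37 lower, which is 7.73% called, and 605 were held within 5 points. The interval reached a median of 4.16 points to each side of the difference in the 323 and 1.24 points in the 970, so that fewer of the former could be held within 5 points. The difference between the 323 and the 970 is given as a description.

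**Figure D2:**
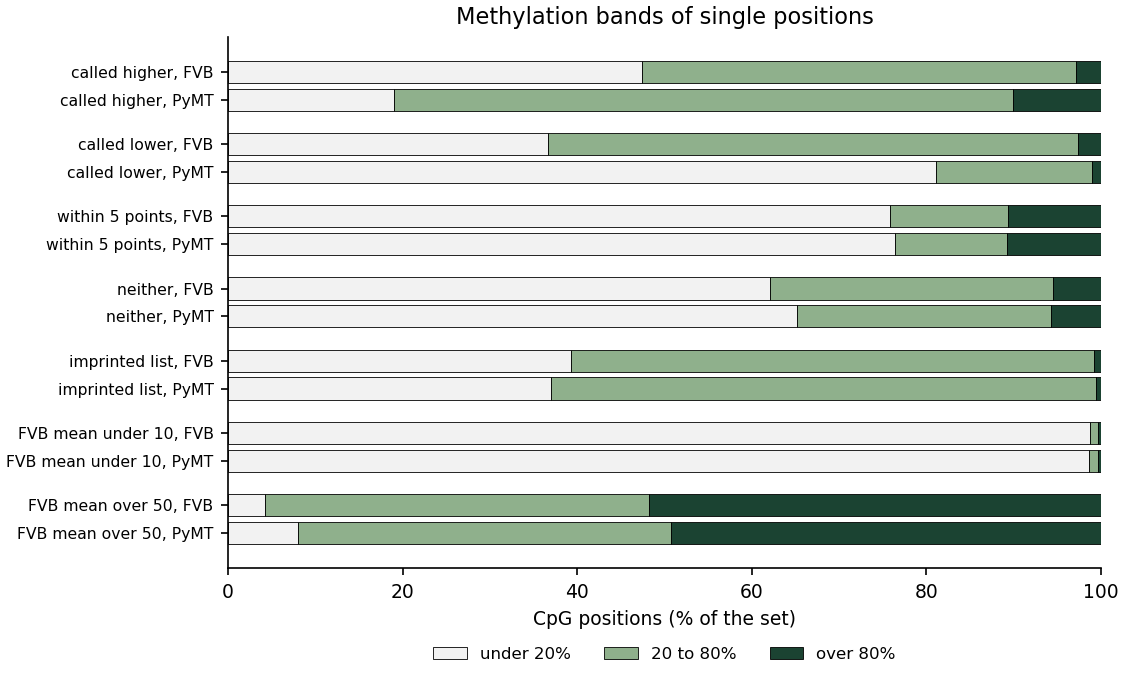
Share of CpG positions (horizontal axis, percent of the positions of a set) methylated under 20%, 20 to 80% and over 80% in FVB and in PyMT, for the 4 groups of promoters, the imprinted list and the promoters under 10% and over 50% in FVB. In the promoters called lower the share of positions under 20% went from 36.7% in FVB to 81.2% in PyMT, and in those called higher from 47.4% to 19%. The promoters were called on the mean of these same positions.

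The position-level levels showed where along the scale the called promoters ended. The promoters were called on the mean of these same positions, so that the direction of the shifts was fixed by the choice. In the 141 promoters called lower, 60.6% of positions were intermediate in FVB and 17.8% in PyMT, and 81.2% were under 20% in PyMT. In the 104 called higher, the intermediate positions were 49.8% in FVB and 70.9% in PyMT, and positions over 80% went from 2.84% to 10.0%. Of the promoters called lower 50 had a PyMT mean under 10%, and of those called higher 50 had a PyMT mean over 50%. In the promoters called higher, positions that were intermediate in FVB went from 38.7 to 61.9% and positions under 20% from 8.41 to 26.6%. The spread between mice of the same age went the same way, and whether it only followed the level was not tested. In the promoters called lower the median SD within groups was 4.4 points in FVB and 3.73 points in PyMT, with the larger SD in PyMT at 41 of 141. In those called higher it was 3.66 and 4.68 points, with the larger SD in PyMT at 73 of 104.

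The distance from the TSS separated the groups. In the promoters within 5 points, positions in the 500 bp on each side of the TSS averaged 5.27% in FVB and those farther out 41.7%, the dip known for CpG island promoters with methylated flanks. The promoters called lower had a smaller contrast, with 24.5% near the TSS and 34.4% farther out in FVB, and in PyMT both levels were lower, at 11.1% and 15%. In the promoters called higher the near level went from 20.9 to 42.2% and the far level from 31.6 to 50.6%. The direction of these changes, averaged over a window, was fixed by the call. Sequence differed as well. The median ratio of observed to expected CpGs in the 2000 bases around the TSS was 0.315 in the promoters called lower, 0.365 in those called higher, 0.498 in those within 5 points and 0.698 in the imprinted promoters, compared with 0.650 in promoters under 10% in FVB and 0.263 in promoters over 50%. Called promoters also had fewer measured positions, with a median of 8 in those called lower and 12 in those called higher, against 27 in those within 5 points. Among the 949 promoters with 10 or more positions 61 were called higher (6.43%) and 63 lower (6.64%), and among the 344 with 3 to 9 positions 43 were called higher (12.5%) and 78 lower (22.7%).

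**Figure D3:**
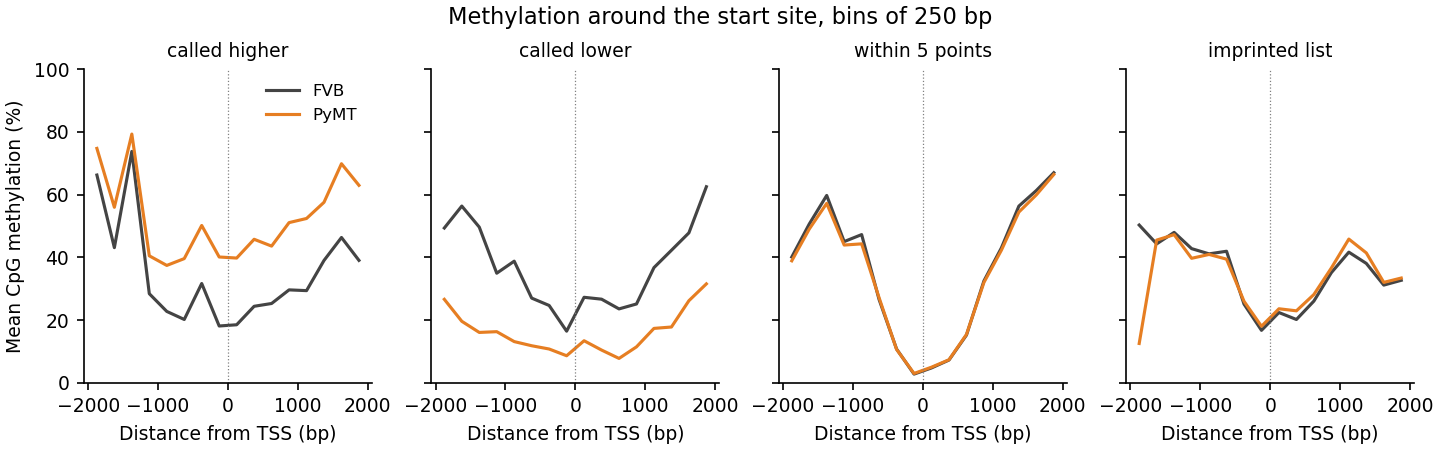
Mean CpG methylation (vertical axis, percent) in FVB and PyMT by distance from the TSS (horizontal axis, bp, bins of 250 bp, negative upstream) in 4 sets of promoters. The PyMT line lies above FVB at every distance in the promoters called higher and below it in those called lower. Averaged over the window, this direction was fixed by the call. The farthest upstream bin of the imprinted list holds 3 positions.

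The named promoters with the largest gains were Mab21l1, Mdk, Pnma1, Angpt2, Mab21l2, Esam, L1td1 and Lyl1. Mab21l1 (chr3:55782510-55785287), a gene of eye development with 18 measured positions, lay between 17.5 and 40.8% in the FVB mice (median 21.8%) and between 63.6 and 77.1% in the PyMT mice (median 74.3%). The difference was 47.0 points (95% interval 40.8 to 53.3, q = 4.75e-11), and no PyMT mouse overlapped an FVB mouse. Mdk, which encodes the secreted growth factor midkine, was at 11.8 to 16.1% in FVB (median 14.9%) and at 31.8 to 72.6% in PyMT (median 55.0%), a difference of 41.0 points (35 to 47.1, q = 1.26e-12). Its FVB mice lay within a few points of each other while the PyMT mice were spread widely, and the groups were apart. Pnma1, a paraneoplastic antigen gene with 59 positions, went from 10.6 to 14.7% in FVB (median 11.5%) to 38.1 to 64.7% in PyMT (median 55.1%), a difference of 40.1 points (36.8 to 43.5, q = 3.19e-13). Angpt2, a ligand of the endothelial Tie2 receptor, was at 28.3 to 49.2% in FVB (median 37.6%) and 68.4 to 81.8% in PyMT (median 76.9%). Of its 15 measured positions 0 lay within 500 bp of the TSS.

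Mab21l2, a paralog of Mab21l1, was at 14.9 to 27.4% in FVB (median 20.9%) and 37.1 to 72.4% in PyMT (median 57.0%). Of its 34 positions 2 lay within 500 bp of the TSS. Esam, an adhesion molecule of endothelial cells whose upstream sequence is printed above, lay between 14.2 and 33.9% in FVB and between 46.5 and 71.3% in PyMT, a difference of 35 points (29.1 to 40.9, q = 3.53e-09). L1td1, which encodes an RNA-binding protein of pluripotent cells, was at a median of 12.6% in FVB and 44.3% in PyMT. Lyl1, a helix-loop-helix factor of blood cells, was at 33.7 and 67.2%. In all 8 of these promoters the PyMT mice lay above every FVB mouse, a separation that the choice of named genes required.

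The named promoters with the largest losses were Fam83a, Cldn4, Ipcef1, Ly6g6c, Cpsf4l, Smtn, Chad and Rbbp8nl. Fam83a (chr15:57984587-58010706), which encodes a signaling adaptor, had 15 measured positions, all of them intermediate in FVB. It lay between 33.1 and 58.5% in FVB (median 51.5%) and between 5.71 and 15% in PyMT (median 11.9%), a difference of −38.1 points (−43.6 to −32.7, q = 2.34e-11). Cldn4, the gene of the tight junction protein claudin 4, was at 34.9 to 48.2% in FVB (median 40.7%) and 8.76 to 19.6% in PyMT (median 12.3%), a difference of −28.9 points (−32.0 to −25.7, q = 5.63e-13). Of its 29 positions 26 were intermediate in FVB, and 2 lay within 500 bp of the TSS. Ipcef1, whose product binds cytohesin exchange factors, was at a median of 37.4% in FVB and 8.38% in PyMT. Ly6g6c, a member of the Ly6 family whose window shares positions with Mpig6b, was at 43.8 and 16.2%. Of its 24 positions 0 lay within 500 bp of the TSS.

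Smtn, the gene of smoothelin of contractile smooth muscle, differed from the others in make-up. It had 9 positions under 20%, 2 intermediate and 4 over 80% in FVB, lay between 27.3 and 37.0% in FVB (median 32.3%) and between 4.17 and 10.1% in PyMT (median 7.24%), and its difference was −25 points (−26.8 to −23.1, q = 4.37e-11). Within 500 bp of the TSS alone its difference was −0.17 points. Chad, which encodes the matrix protein chondroadherin, was at a median of 36.0% in FVB and 8.40% in PyMT. Cpsf4l was at 44.4 and 17.0%, and Rbbp8nl at 36.5 and 9.84%. In all 8 promoters named for losses the PyMT mice lay below every FVB mouse, which the choice of named genes required.

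**Figure D4:**
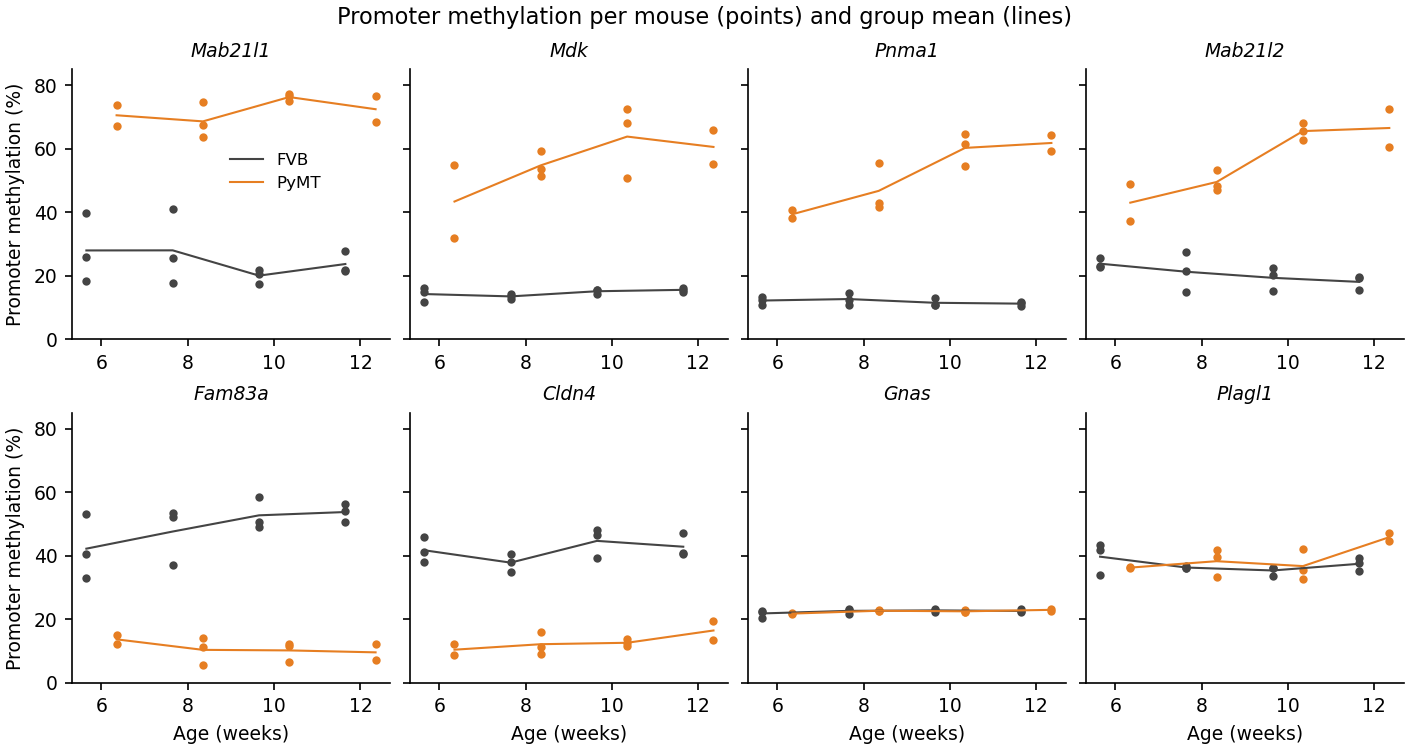
Promoter methylation (vertical axis, percent) in every mouse (points) and group mean (lines) by age in weeks (horizontal axis) for 4 promoters called higher (Mab21l1, Mdk, Pnma1, Mab21l2), 2 called lower (Fam83a, Cldn4) and 2 imprinted promoters (Gnas, Plagl1). The groups are apart at week 6 in the first 6 panels, Pnma1 and Mab21l2 are higher at weeks 10 and 12 than at week 6 in PyMT, and Gnas stays between 20.5 and 23.3% in all 22 mice. In the first 6 panels the separation was required by the choice of named genes.

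Imprinted genes served as a check, since their control regions carry methylation on only the maternal or the paternal allele in every cell. Of 32 genes in the list 29 were measured and 19 were in the set, 16 of them with at least 50% of positions at 20 to 80%. Over all weeks none of the 19 was called in either direction by the quasi-binomial test or by limma, with 9 and 6 at an unadjusted p under 0.05. At late carcinoma Nap1l5 was called higher, as given below. Of the 19, 7 were held within 5 points, and 4 were higher by q-value alone. The median difference was 2.08 points, from −0.96 to 9.96, with 15 of the 19 positive, beside a median of −0.47 for the whole set. Sgce shares positions with Peg10, Usp29 with Peg3 and Commd1 with Zrsr1, all with positive differences, so the 19 are not separate regions. The list does not hold every imprinted gene. Snurf (42.1% in FVB and 38.5% in PyMT) and Peg12 (18.1 and 25.9%) are in the set but outside the list, and both were undecided. Summed over the list, the mean level was 32.2 to 35.9% in the FVB mice and 35 to 38.5% in the PyMT mice. Gnas (chr2:174284320-174346744), which encodes the stimulatory G protein alpha subunit, had 321 measured positions and lay between 20.5 and 23.2% in FVB and between 21.5 and 23.3% in PyMT, a difference of 0.012 points (−0.55 to 0.58). Grb10, a growth factor receptor adaptor, differed by 0.81 points (−0.31 to 1.92).

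Plagl1, a zinc finger gene with 48 positions, all intermediate, was at 33.8 to 43.4% in FVB and 32.8 to 47.2% in PyMT, a difference of 2.08 points (−0.91 to 5.06). Peg3 (0.97 points), Mcts2 (0.95), Nnat (−0.19), Inpp5f (−0.27), Impact (−0.61) and Slc38a4 (−0.96) had differences under 1 point, with intervals that reached at most 6.66 points. Peg10 (3.56 points), Mkrn3 (3.4), Igf2r (2.70) and Zrsr1 (3.62) were somewhat higher without a call. A q-value under 0.01 was reached at 4 promoters. Nap1l5 was at 36.1 to 52.9% in FVB and 44.1 to 65.9% in PyMT, a difference of 9.96 points (6.62 to 13.3, q = 0.000782) that came with 23.7 points at late carcinoma and 4.97 to 5.95 points at the earlier stages. At late carcinoma Nap1l5 met the call rule (q = 3.49e-06 by the quasi-binomial test). Over all weeks, leaving out 1 mouse gave 0 to 1 imprinted calls, that call being Nap1l5. Magel2 was higher by 5.78 points (3.12 to 8.44, q = 7.15e-05) and Cdkn1c, a cyclin-dependent kinase inhibitor, by 4.90 points (2.65 to 7.15, q = 0.00159). Igf2r, the receptor that clears Igf2, also had a q-value under the limit (q = 0.00911) although its interval ran from −1.67 to 7.07 points.

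Other promoters were named for having the most positions among those within 5 points, so that their small differences were fixed by the choice. Rap1gap (155 positions) differed by −0.27 points (−0.86 to 0.31), Tbx1, a T-box factor, by −0.16 points (−1.25 to 0.93) and Dxo by −1.17 points (−2.04 to −0.30). Kmt2b, which encodes a histone H3 lysine 4 methyltransferase, was within 5 points and still separated the groups, with 9.54 to 11.9% in the FVB mice and 6.19 to 7.91% in the PyMT mice and a difference of −3.43 points (−3.93 to −2.94, q = 7.03e-08). A promoter of the within 5 points group was therefore bounded in size and not shown to be equal.

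The marker genes of cell types gave the following values. Of 50 luminal epithelial genes 43 were measured, 26 of them under 10% in FVB, 14 in the set and 3 over 50%. Of the 14 in the set 7 were called lower and 0 higher, 11 were lower by q-value alone, and 13 had a negative difference, with a median of −9.96 points. Rab25, a trafficking GTPase of epithelia, was at 29.0 to 62.9% in FVB (median 41.6%) and 6.85 to 20.7% in PyMT (median 9.36%) over 3 positions, a difference of −30.7 points (−36.8 to −24.6, q = 4.96e-10). The other called promoters were Prlr, the prolactin receptor gene (40.5% in FVB and 11.0% in PyMT), Cldn4, Elf5, a factor of alveolar cells (36.4 and 9.44%), the keratin genes Krt7 (42.8 and 23.3%) and Krt18 (31.4 and 15.5%), and Csn3, the kappa casein gene (17.8 and 6.49%). Gata3, the luminal transcription factor, was at 11.7 and 2.94% over 73 positions, a difference that could not reach much beyond 10 points and was −8.81 (q = 8.86e-13). Esr1, the estrogen receptor gene, differed by −0.05 points and Muc1 by 1.88 points. Over all 43 measured luminal promoters the mean was 13.6 to 17.3% between FVB mice and 6.02 to 8.45% between PyMT mice. The groups did not overlap, which also held for the full adipocyte and endothelial lists below. The part that epithelial content had in the 141 promoters called lower was not tested.

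The remaining cell types had few genes in the set. Of 24 measured adipocyte promoters 15 were under 10%, 8 over 50% and 1 in the set, Lipe, the hormone-sensitive lipase gene, with a difference of 2.06 points and no call; over all 24 the mean was 21.6 to 24.4% in FVB and 18.3 to 21.1% in PyMT. Of 3 basal and myoepithelial promoters Tagln was called higher, Myh11, the smooth muscle myosin gene, was lower by q-value without a call (15.6% in FVB and 6.24% in PyMT, −9.71 points, q = 4.48e-08), and Cnn1, the calponin gene, differed by 1.80 points (q = 0.152). Tagln, the gene of the smooth muscle actin-binding protein transgelin, was at 12.1 to 23.3% in FVB (median 17.1%) and 35.7 to 57.6% in PyMT (median 47.2%), a difference of 30.2 points (26.7 to 33.7, q = 1.13e-12). Of 3 fibroblast promoters Loxl1, a crosslinking enzyme of elastin, was called higher by 14.6 points and Tcf21, a mesenchymal factor, was called lower (−19.8 points). The 58 positions of Loxl1 all lay farther than 500 bp from the TSS. Of 5 endothelial promoters Esam was called higher, and Cdh5, the VE-cadherin gene (−16.0 points over 3 positions), and Esm1 (−10.3 points) lower. The 3 positions of Cdh5 all lay farther than 500 bp from the TSS. The endothelial list was thus called in both directions. Over all 21 measured endothelial promoters the mean was 18.45 to 21.75% in FVB and 22.55 to 25.24% in PyMT, higher in PyMT without overlap. The full basal, fibroblast and leukocyte lists did overlap. Of 2 leukocyte promoters 0 were called by the quasi-binomial test or limma, both at an unadjusted p under 0.05, with 6.12 points at Cd37 and −1.70 at Arhgap9. Each of these lists holds too few promoters of the set to describe a cell type.

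Gene families are set beside the whole set, of which 8.04% was called higher and 10.9% lower. All 15 clustered protocadherin promoters in the set, cell adhesion genes on chromosome 18, had a positive difference, with a median of 8.20 points, and 5 were called higher and 0 lower. Pcdhga12 was at 42.0 to 50.9% in FVB and 54.4 to 74.9% in PyMT, a difference of 18.9 points (14.7 to 23.1, q = 2.31e-09). Its 19 positions all lay farther than 500 bp from the TSS. Of 7 germline genes 3 were called higher (Nobox, Rbmxl2 and Hormad2) and all 7 differences were positive, with a median of 7.65 points. Nobox, an oocyte homeobox gene, was at 33.8 to 53.9% in FVB and 52.0 to 73.5% in PyMT over 4 positions, with overlap between the groups. All 4 positions lay farther than 500 bp from the TSS. Of 6 keratin and keratin-associated genes 4 were called lower and all 6 were negative, with a median of −17.7 points. Krt80 was at a median of 41.7% in FVB and 14.9% in PyMT over 4 positions. The keratin list shares Krt7 and Krt18 with the luminal list.

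Of 9 Hox promoters in the set 2 were called lower, Hoxa5 and Hoxb6, and 0 higher, with a median of −5.46 points; Hoxa5 (96 positions) was at 12.5 to 37.8% in FVB and 4.91 to 15.6% in PyMT, a difference of −18.7 points (−24.4 to −13.0, q = 8.84e-08), with overlap between the groups. Of 7 promoters of Sox, T-box, forkhead and Gata genes only Sox10, a factor of neural crest and of mammary progenitor cells, was called, at a median of 22.8% in FVB and 5.84% in PyMT; within 500 bp of the TSS alone its difference was −8.67 points and no call was made. Of 3 other homeobox promoters and 1 vomeronasal receptor promoter 0 were called by the quasi-binomial test or limma, with 3 of the 4 at an unadjusted p under 0.05 and differences of 0.41 to 7.55 points and of −7.31 points. Zinc finger genes of the Zfp class were even, with 2 of 25 called higher, 1 lower, 13 within 5 points and a median of −0.15 points. Zfp996 (21.3 points) and Zfp750, an epidermal differentiation factor (−25 points), had the largest of these differences. Of 30 solute carriers 3 were called in each direction, among them the zinc transporters Slc39a2 (18.6 points) and Slc39a4 (−31.9 points), and 9 were within 5 points. The 6 positions of Slc39a2 all lay farther than 500 bp from the TSS. Solute carriers were thus called at shares near those of the whole set, as were Zfp genes in the upward direction. The Hox list and the list of Sox, T-box, forkhead and Gata genes are too small to set against those shares.

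Each stage was then compared with its own controls. At hyperplasia 38 promoters of the set were called higher and 68 lower, where 0.427% and 1.18% of all promoters tested were called. At adenoma/MIN the counts were 64 and 86 (background 0.905% and 1.62%), at early carcinoma 95 and 142 (1.45% and 2.44%) and at late carcinoma 105 and 111 (1.78% and 2.32%). The number of PyMT mice was 2, 3, 3 and 2, so that the counts were not reached with the same precision. When 1 mouse was left out, the counts at hyperplasia ranged from 8 to 41 higher and from 15 to 71 lower, with the lowest counts without PyMT mouse 1 of week 6. Without PyMT mouse 2, FVB mouse 1 or FVB mouse 3 of week 6, 25, 24 and 17 were called higher, and without PyMT mouse 2 or FVB mouse 3 34 and 39 lower. At adenoma/MIN 54 were called lower without PyMT mouse 3 of week 8, and at late carcinoma 51 without PyMT mouse 1 of week 12.

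**Figure D5:**
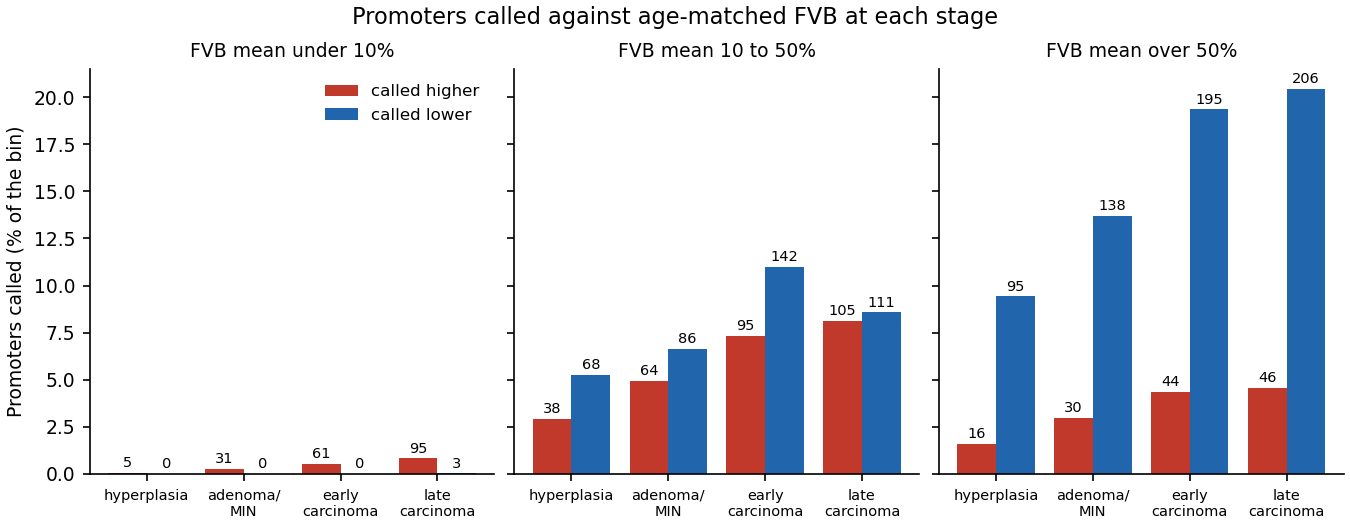
Share of promoters called higher or lower against age-matched FVB at each stage (vertical axis, percent of the promoters in a range, with counts above the bars) for promoters under 10%, at 10 to 50% and over 50% in FVB. In the middle panel the 2 directions stand at 105 and 111 promoters at late carcinoma.

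The stages share no mice, so that the difference of a promoter at several of them was measured in separate animals. The error of the tests was shared between stages, so the calls themselves were not fully separate. All 38 promoters called higher at hyperplasia and all 68 called lower had a difference of the same sign at each of the later stages. Of the 38, 35 were called again at late carcinoma (92.1% of the 38, 33.3% of the 105), and of the 68, 59 (86.8% of the 68, 53.2% of the 111). At all 4 stages 33 promoters were called higher, of 125 called higher at any stage, and 52 were called lower, of 159. Such overlaps were not counted over all promoters tested, so they do not show a trait particular to the set. The set was chosen on the FVB mice of all weeks. When the promoters were chosen on the FVB mice of weeks 6 and 8 and compared in the mice of weeks 10 and 12, 135 of 1303 were called higher and 160 lower, where 1.91% and 3.07% of all promoters were called in those mice. With the weeks exchanged, 63 of 1292 were called higher and 94 lower, where 0.883% and 1.85% were called.

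The size of the difference in the called promoters followed the stages in an unequal way. The median difference of the 104 promoters called higher was 12.9 points at hyperplasia, 16.1 at adenoma/MIN, 20.8 at early carcinoma and 24.2 at late carcinoma. That of the 141 called lower was −14, −14.8, −19.2 and −17.1 points, and their PyMT level was 45.2, 43.2, 33.6 and 38.1% of the FVB level. Mean PyMT levels of the promoters called lower stayed between 13.8 and 15.2% over the stages, while the FVB levels were 30.7, 31.8, 34.5 and 34.2%. In both groups the median difference was thus smallest at week 6. The gain was largest at late carcinoma and the loss at early carcinoma. These medians describe promoters chosen by the same contrast.

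The course with age was tested on its own in the PyMT mice, which the rule did not use. With week as a number, 21 promoters of the set were higher with week by a q-value under 0.01 and at least 10 points from week 6 to week 12, and 0 were lower, where 0.42% and 0.0217% of all promoters were called. By limma 9 were higher and 0 lower. An unadjusted p under 0.05 was found at 227 promoters of the set by the quasi-binomial test and at 254 by limma. Over all 13814 promoters it was found at 1841 by the quasi-binomial test. Without PyMT mouse 1 of week 12 the count of 21 fell to 4, without mouse 2 of week 6 to 7 and without mouse 1 of week 6 to 13. Among FVB mice 0 promoters were called in either direction by both tools, with 116 and 114 promoters at an unadjusted p under 0.05. Over all 13814 promoters 831 had such a p by the quasi-binomial test. Of the promoters called higher 96 of 104 had a positive slope in PyMT (median 9.54 points from week 6 to week 12) and 31 in FVB. Of those called lower 58 of 141 had a positive slope in PyMT and 120 in FVB, with medians of −0.80 and 3.57 points. Of the promoters within 5 points 366 of 627 had a positive slope in PyMT and 388 in FVB. Of the undecided promoters 275 of 421 did so in PyMT and 263 in FVB. These groups were chosen by the difference between the same PyMT and FVB mice, so their slopes are given as a description.

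Mab21l2, Bhmt2 and Pnma1 had the largest slopes. The PyMT mean of Mab21l2 was 43.0% at hyperplasia, then 49.5, 65.5 and 66.5% at the next stages, a slope of 27.0 points (q = 0.0022), while FVB changed by −5.73 points. Bhmt2, a methyltransferase of homocysteine metabolism whose window shares its positions with Dmgdh, had a slope of 26.8 points (q = 0.000919) and lay between 31.8 and 65.0% in the PyMT mice and between 20.2 and 28.3% in the FVB mice. Pnma1 had a slope of 25 points (q = 0.00829). The slopes of PyMT and FVB mice were also compared directly by an interaction term. By limma 22 promoters of the set rose more with week in PyMT than in FVB and 0 rose less. By the quasi-binomial test 12 rose more and 0 rose less (background 0.159% and 0.00724%). Without PyMT mouse 1 of week 12 the count was 2, without PyMT mouse 2 of week 6 it was 4 and without FVB mouse 2 of week 12 it was 6.

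Neighboring promoters were counted among the calls. Of the 104 called higher 7 had another promoter called higher within 100 kb of the gene start without a shared position, and 7 had a promoter called lower within that distance. Of the 141 called lower 6 had another such neighbor. In 4 of the former and 6 of the latter a measured position was shared with another promoter of the same call, and in the whole set 147 promoters shared a position with another member, so that the counts are not all of separate regions. Neighbors were not counted over all promoters tested, so these counts do not show whether calls lie closer together than other promoters.

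The depth was similar between mice. Samples held 1314077 to 1435757 positions at a mean coverage of 60.2 to 79.2 reads, and the median promoter of the set was read at 75.8 reads per position. FVB mouse 2 of week 8 deviated most among the controls, with a root mean square of 4.79 points from its group over the set, against 3.29 to 4.37 points in the other FVB mice. Among PyMT mice the root mean square was 5.28 points at week 6 and 4.82 at week 12, where the 2 mice are compared only with each other. In the other PyMT mice it was 3.67 to 4.17 points. Without FVB mouse 2 of week 8, 103 promoters were called higher and 142 lower.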

How the data were processed

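The authors aligned the ERRBS reads to mm10 with Bismark (version not given in the sources used here) and deposited, for each CpG cytosine with at least 10 reads, the read count (coverage) and the percent of reads called methylated and unmethylated, without normalization and with strands apart. PyMT and FVB mice of each week were grouped from the labels, which give no batch.

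Positions covered in all 22 files (1115690 on autosomes, all on a CpG) were assigned to promoters within 2000 bp of the TSS of 37949 curated transcripts of 20021 genes (NCBI RefSeq, assembly of the mm10 build). The promoter level was the unweighted mean percent. Methylated reads (coverage times percent) were summed per promoter and fitted by quasi-binomial logistic regression with moderated overdispersion, an F test and Benjamini-Hochberg adjustment over 13814 promoters. Intervals and a second test came from limma 3.58.1 in R 4.3.3. The fits were tested on simulated data. Precision is set by the number of mice, since read counts without molecular identifiers are not independent molecules.

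The members and gene lists were chosen with earlier results of these data known. Named genes were the 8 largest calls in each direction with 10 or more positions and groups apart, the 6 within 5 points with most positions, the largest calls of each list, every imprinted member (16 without shared positions), promoters at the limits and the 3 largest slopes. Sequences were the first of these with an exon-free upstream window. Genes without a sequence are named only. The alternatives are given in the closing section.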

Additional observations from a re-analysis of the deposited data

Results flagged for a closer look

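The course with week differed between PyMT and FVB mice, by the interaction term, at 12 promoters of the set, all with a steeper rise in PyMT. Among the named promoters these were Mab21l2, where the slope in PyMT exceeded that in FVB by 32.7 points from week 6 to week 12 (q = 0.000904), and Bhmt2, where it did so by 24.9 points (q = 0.00145). The others were Ackr3, Pcdhgb6, Dmgdh, Tacc2, Rbm46, Igfbp6, 4930404N11Rik, Slc6a16, Fam229a and Tssk3, named here after their values were seen. The q-values are from the quasi-binomial test.

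At 6 named promoters 1 PyMT mouse lay far from the other 9 by Dixon's criterion for 10 values, which chance meets in about 1 of 20 groups, and the 10 mice span 4 stages. The mouse lay below the others at Mdk (31.8%) and Kmt2b (6.19%), and above them at Cpsf4l (29.1%), Rbbp8nl (19.2%), Peg3 (58.0%) and Zfp750 (36.6%). Whether these mice differ in tissue content was not tested.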

How the results depend on the processing

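Samples with the same replicate number within a week deviated together no more than others (correlations of −0.0893 to 0.153 in 10 pairs, against −0.202 to 0.29 in 20 pairs of different numbers), so the numbers were not taken as pairs. With the replicate block 6 higher and 25 lower at hyperplasia, 40 higher at adenoma/MIN and 1 imprinted promoter were called. With 10 or more positions 61 were higher and 63 lower over all weeks, with 36, 38, 76 and 58 lower over the stages, 61 higher at early carcinoma, 3 luminal promoters lower and 3 protocadherins higher. Within 500 bp the set held 497, with 88 lower over all weeks, 40, 84 and 63 lower at hyperplasia, early and late carcinoma, 7 by interaction, 4 luminal and 2 protocadherin calls. At 25 points 31 and 26 were called over all weeks, 11 and 18, 20 and 19, 35 and 39, and 50 and 38 over the stages, 4 by slope, 3 by interaction, 4 luminal and 0 protocadherins, and at 5 points 163 and 250, with 2 imprinted and 8 protocadherin calls. Without overdispersion 74 and 127 were called at hyperplasia, 101 and 135 at adenoma/MIN, 91 and 7 by slope in PyMT, 14 and 4 in FVB, and 92 and 30 by interaction. At q under 0.05 the slope gave 46 and 2 and the interaction 21 and 1, and with limma 9 and 22. The set held 840 at 15 to 45%. Coverage weighting called 1 imprinted promoter, Nap1l5. Choosing on weeks 10 and 12 gave 63 higher in weeks 6 and 8 and 1 protocadherin, and choosing on weeks 6 and 8 gave 8 protocadherins and 1 imprinted promoter in weeks 10 and 12.

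Leaving out 1 mouse gave 8 to 41 higher and 15 to 71 lower at hyperplasia, 54 to 91 lower at adenoma/MIN, 51 to 118 lower at late carcinoma, 4 to 22 higher and 0 to 1 lower by slope in PyMT, 2 to 16 by interaction and 0 to 1 imprinted promoters. At hyperplasia and late carcinoma this leaves 1 PyMT mouse, which was assumed to vary like the other groups. No named promoter that was called changed sign. The cause of these changes was not tested, apart from the fewer promoters or mice that a setting leaves. Hyperplasia and late carcinoma had 2 PyMT mice, and promoters with few positions had wide intervals.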

Other observations

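The slope with week in PyMT was called at 21 promoters of the set, named here after their values were seen. They belonged to genes of varied roles, such as Gsn, the actin-severing protein gelsolin (10.4 points from week 6 to week 12), Igfbp6, a binding protein of insulin-like growth factors (14.4 points), Cyp26c1, which degrades retinoic acid (13.5 points), Rbm46, a germline RNA-binding protein (19.9 points over 114 positions), Tacc2 (21.0 points), Stmn3, a microtubule regulator (24.3 points over 5 positions), and Cd37, a tetraspanin of B cells (17.7 points). The corresponding slopes in FVB lay between −5.73 points at Mab21l2 and 1.96 points at Bhmt2. Slc6a16, Cd37, Nap1l5 and Gsn had such a slope although their difference over all weeks was under 10 points.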
